A study of Mus musculus with 620 samples.

Results

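A set of 9 genes that tissue macrophages are known for was followed across mouse tissues: Gpnmb, Trem2, Tyrobp, Cd68, Ctss, Lyz2, Adgre1, Atp6v0d2 and Mrc1. They were chosen by name, with earlier results of these data known, and all 9 were found in each of the 3 count tables, among 24850 genes in the table of the LT cohort and 40840 genes in each of the tables of the ST and YA cohorts. The series holds 620 bulk RNA-seq libraries from 72 mice, in which poly(A) RNA of whole tissues was sequenced, each library from 1 tissue of 1 mouse. The study asked how age, exenatide (a peptide agonist of the GLP-1 receptor, GLP-1R), rapamycin (a drug that blocks the kinase mTOR) and lowering GLP-1R in the hypothalamus change tissues throughout the body.

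The LT cohort has 25 mice and 12 tissues, in 3 groups: young controls, aged controls, and an aged group on exenatide, with 8, 9 and 8 mice in most tissues. The ST cohort has 31 mice and 7 tissues, with 5 mice in most groups: young and aged controls, aged mice on exenatide, aged mice on rapamycin, aged mice with hypothalamic GLP-1R knockdown, and aged mice with the knockdown that were given exenatide. The YA cohort has 16 mice and 8 tissues, 8 controls and 8 mice given exenatide. The Y and A of the group labels were read as young and aged. Ages, strain, sex, doses, treatment times, the means of knockdown and the words behind the cohort names are not given in the sources used here, nor is whether control mice got a vehicle. Libraries held 14.6 M to 56.2 M counted reads, with cohort medians of 24.8 M to 26.2 M. Genes that define each labelled tissue were mostly high in it. Prox1 was lower in YA hippocampus, with a median of 28.9 CPM where LT and ST hippocampus had 126 and 155 CPM. It was under the YA heart median of 118 CPM in 15 of 16 libraries. Ptprc in YA white blood cells, at 664 CPM, was under the YA adipose median of 743.5 CPM. The largest exception was in 2 young LT colons, those of mice A52 and A53. These had Car1 at 0.0867 and 0.0468 CPM where the other 21 LT colons had 419 to 7061 CPM, and Lyz1, a lysozyme of small-intestinal Paneth cells, at 12450 and 3301 CPM where the others had 1.18 to 13.3 CPM. Results that rest on them are also given without both, an alternative added after seeing the data. The hypothalamus was not among the ST tissues, so Glp1r could not be checked where it was knocked down.

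Macrophages live in every organ and clear dying cells, debris and lipid. Trem2 is a surface receptor for lipids and lipoproteins, and Tyrobp (DAP12) is the membrane adaptor through which it signals. Gpnmb is a membrane glycoprotein of lysosomes and endosomes that is known to be high in lipid-loaded macrophages. Cd68 is a glycoprotein of the late endosome and lysosome, Ctss (cathepsin S) a lysosomal protease that trims the class II invariant chain, and Lyz2 the lysozyme of myeloid cells. Atp6v0d2 is a d subunit of the vacuolar proton pump found in osteoclasts, some macrophages and some epithelia. Adgre1 encodes F4/80, the classical surface marker of mouse macrophages, and Mrc1 the mannose receptor CD206 of resident macrophages. In whole tissue, fewer cells of a type and less RNA per cell cannot be told apart.

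The 250 bases before the start site are shown for 4 members that differ in the motifs they hold, since most of the 9 were higher together in aged adipose tissue and kidney of the LT cohort and in aged heart of the ST cohort, though not in LT heart or ST adipose tissue; the sequences are written 5′ to 3′ on the strand of the gene. The sequences are from RefSeq, build GRCm38.p6, which had entries for 6 of the 9 genes; Tyrobp, Adgre1 and Atp6v0d2 had none. The Gpnmb window is chr6:49036268-49036517 on the plus strand, the Trem2 window chr17:48346151-48346400 on the plus strand, the Cd68 window chr11:69666171-69666420 on the minus strand and the Mrc1 window chr2:14229164-14229413 on the plus strand. Bases just after the window were found in an annotated transcript of the gene for Trem2 and Mrc1, but not for Gpnmb and Cd68. The start sites used for Gpnmb and Cd68 are therefore less sure. Capitals mark matches on either strand to CACGTG and CATGTG (E-boxes of the kind MITF and TFE factors bind), GAGGAA (the core bound by PU.1) and TGANTCA (the AP-1 site).
Gpnmb: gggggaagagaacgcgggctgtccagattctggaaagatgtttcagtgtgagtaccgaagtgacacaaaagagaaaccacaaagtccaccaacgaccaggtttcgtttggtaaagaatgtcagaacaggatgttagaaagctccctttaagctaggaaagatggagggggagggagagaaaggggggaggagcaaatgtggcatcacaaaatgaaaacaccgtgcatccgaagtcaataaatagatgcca
Trem2: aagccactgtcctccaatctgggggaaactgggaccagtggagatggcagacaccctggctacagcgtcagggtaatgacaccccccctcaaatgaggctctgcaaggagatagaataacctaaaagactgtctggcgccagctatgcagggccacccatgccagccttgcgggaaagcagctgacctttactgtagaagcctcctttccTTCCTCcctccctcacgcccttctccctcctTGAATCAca
Cd68: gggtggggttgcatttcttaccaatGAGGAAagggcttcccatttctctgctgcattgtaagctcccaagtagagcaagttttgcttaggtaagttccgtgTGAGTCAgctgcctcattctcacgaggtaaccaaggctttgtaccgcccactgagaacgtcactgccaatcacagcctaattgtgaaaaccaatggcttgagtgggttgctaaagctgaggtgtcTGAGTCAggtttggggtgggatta
Mrc1: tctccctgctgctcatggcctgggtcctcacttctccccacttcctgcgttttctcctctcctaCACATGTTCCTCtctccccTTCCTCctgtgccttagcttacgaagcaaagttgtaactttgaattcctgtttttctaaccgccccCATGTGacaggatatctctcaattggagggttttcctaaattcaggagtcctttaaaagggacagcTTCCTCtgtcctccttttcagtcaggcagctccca
The Gpnmb window held none of the 4 motifs. The Trem2 window held 1 GAGGAA and 1 TGANTCA match, the Cd68 window 1 GAGGAA and 2 TGANTCA matches, and the Mrc1 window 2 CATGTG and 3 GAGGAA matches. In Mrc1 a CATGTG match is followed at once by a GAGGAA match, so they appear as 1 run of capitals. Among all 32851 promoter windows of this length in the table, 6.02% held CACGTG, 12.3% CATGTG, 23.3% GAGGAA and 6.75% TGANTCA. A match describes these letters only.

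The members were first described by tissue in the young LT controls, on the CPM scale (read counts divided by library size), with TMM scaling, a normalisation between libraries, done within each tissue; levels set side by side across tissues were therefore scaled separately. Gpnmb was highest in adipose tissue, with a median of 30.5 CPM (range 17.1 to 80.5, n = 8), and in lung, with 23.3 CPM (17.4 to 40.9, n = 8), and these ranges overlapped. Colon followed at 6.82 CPM (5.68 to 11.2, n = 6), apart from both neighbours in the order, with the same median without A52 and A53. Spleen, hippocampus, skeletal muscle, frontal cortex, hypothalamus and heart came next with medians from 4.39 down to 1.61 CPM, each overlapping the next. White blood cells, liver and kidney were lowest, at 0.467, 0.305 and 0.174 CPM. Trem2 had another order: frontal cortex was highest at 13.2 CPM (11.3 to 15.6), then adipose tissue at 10.5, hippocampus at 9.24 and hypothalamus at 6.66 CPM. Spleen was at 0.412 CPM for Trem2 while it was among the 2 highest tissues for Tyrobp, at 86.6 CPM.

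Tyrobp was highest in white blood cells, at 179 CPM (85.0 to 213, n = 5). Cd68, Ctss, Adgre1 and Mrc1 each had their highest median in spleen, at 112, 527, 175 and 288 CPM. Each of these spleen ranges overlapped that of the next tissue, which was adipose tissue except for Ctss, where it was white blood cells. Mrc1 was low in white blood cells, at 3.33 CPM (1.69 to 8.59), in which Tyrobp peaked. Lyz2 stood apart in lung at 5568 CPM, above every library of the next tissue, white blood cells at 1626 CPM. Reads of Lyz2 and its near-identical neighbour Lyz1, which lung epithelium also makes, may have been split by the counting. Which lung cells, macrophages or others, the Lyz2 reads came from was not tested. Atp6v0d2 was high in lung, at 51.6 CPM, and kidney, at 33.8 CPM, where the proton pump of acid-secreting cells is made, and its median was 0 in hippocampus and frontal cortex.

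**Figure D1:**
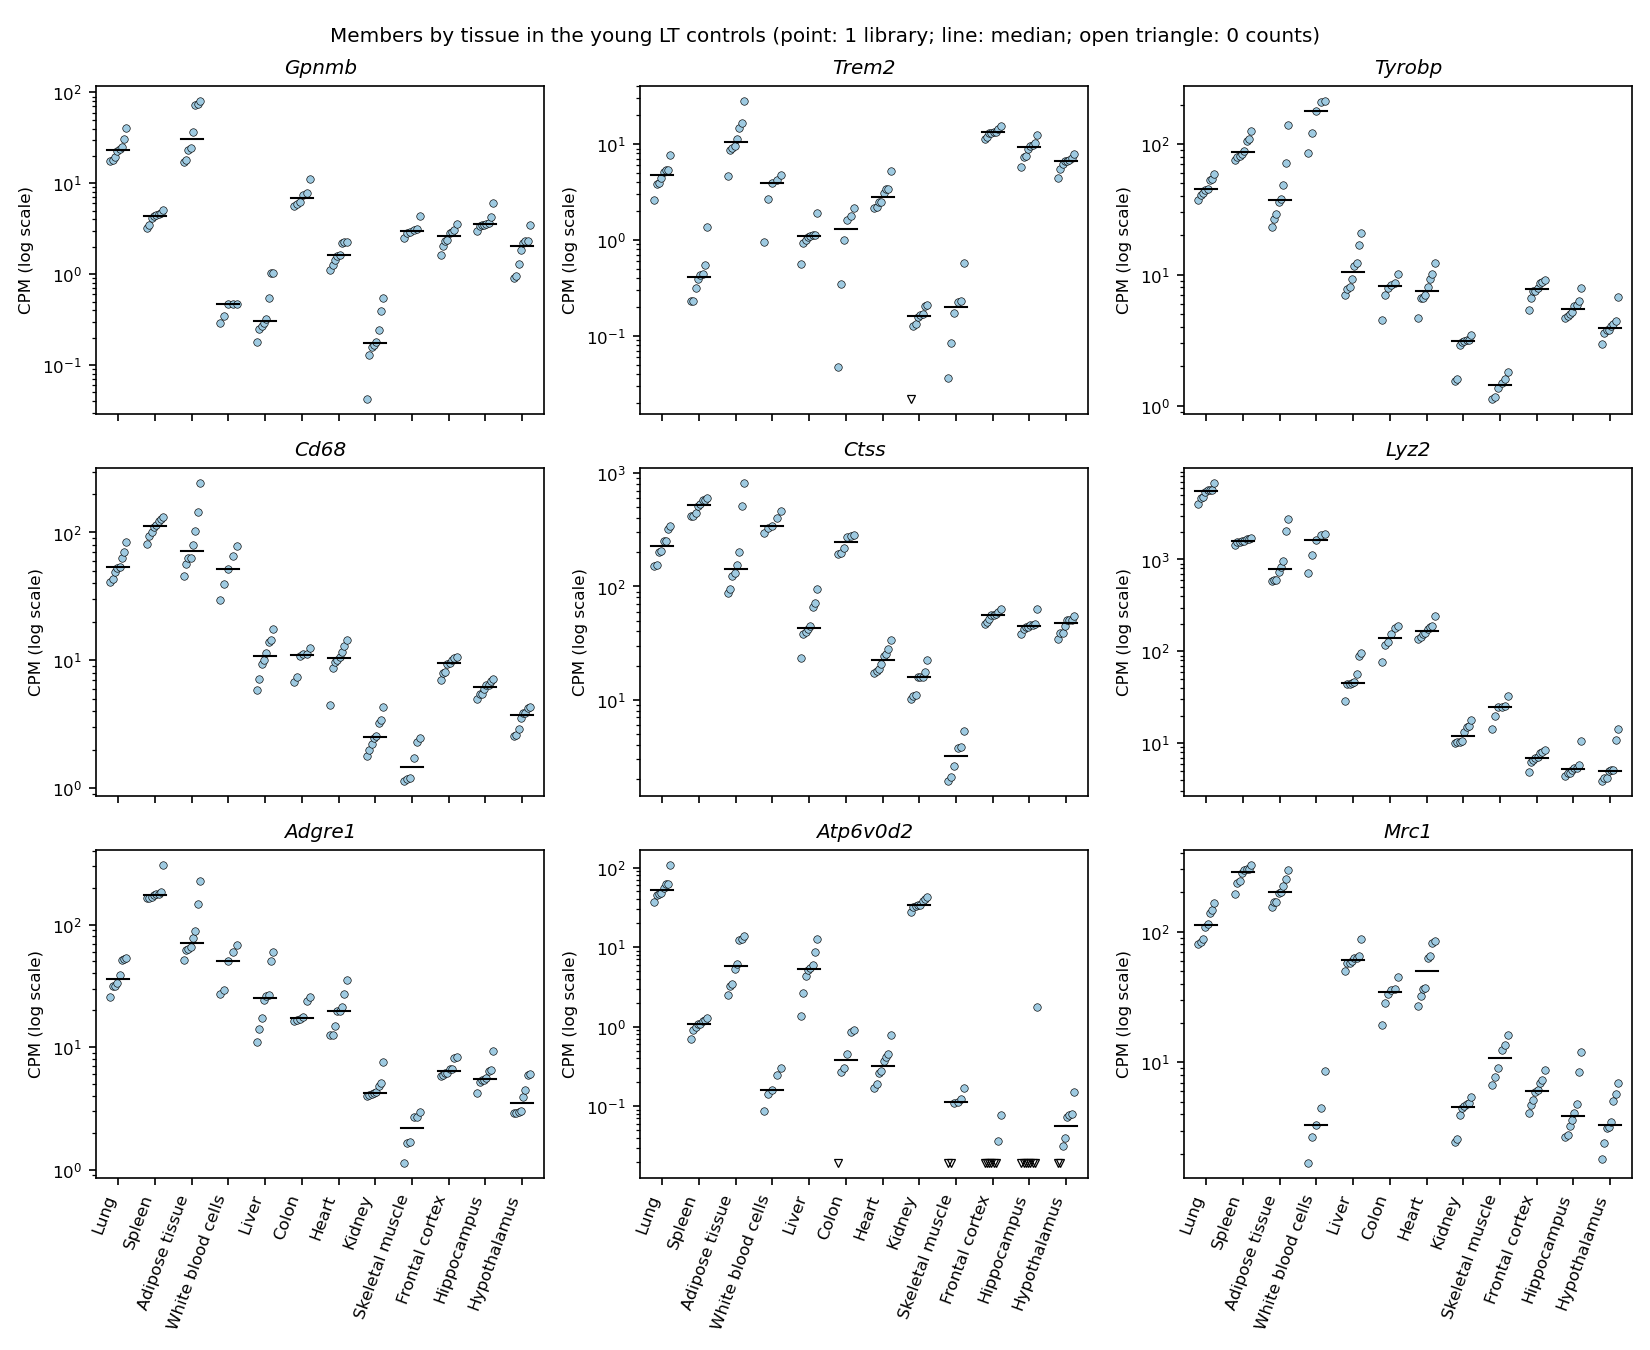
CPM (log axis) of the 9 members in the young LT controls by tissue, 1 point a library, the line the median and open triangles libraries with 0 counts. Gpnmb is highest in adipose tissue and lung, Trem2 in frontal cortex, Lyz2 in lung and Atp6v0d2 in lung and kidney.

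The members were chosen with the age difference of the LT cohort in view, so it is given as a description. Of 103 member-by-tissue differences between aged and young LT controls, 34 were higher and 1 lower in the aged mice at an adjusted p under 0.05 (edgeR quasi-likelihood test, Benjamini-Hochberg over all genes of a tissue), which is 34% beside 13.6% of all genes. The 5 other combinations, all of Atp6v0d2, were too low to test. Adipose tissue and kidney held 17 of the 34. All 9 members were higher in aged adipose tissue, where 26.1% of all genes were higher, and 8 of 9 in aged kidney, where 4.72% were. In lung none of the 9 differed, beside 6.43% of all genes that differed either way.

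Gpnmb had the widest span in adipose tissue. The 8 young mice were at 17.1, 17.9, 23.3, 24.2, 36.8, 73.3, 74.3 and 80.5 CPM, and the 9 aged controls at 135, 276, 288, 368, 614, 781, 982, 1014 and 1353 CPM, without overlap. The log2 difference was 3.85 ± 0.51 (SE). Atp6v0d2 had no overlap either, at 2.52 to 13.6 CPM in the young and 25.7 to 253 CPM in the aged, a log2 difference of 3.67 ± 0.50. Adgre1 and Ctss differed by 2.195 and 2.369, Trem2 by 1.98, Lyz2 by 1.84, Cd68 by 1.33, Tyrobp by 1.29 (0.27 with the trend of transcript length taken out) and Mrc1, the resident marker, by 1.16 on the log2 scale. Markers of fat cells themselves were lower in the same tissue: 9 of 10 white adipocyte genes passed in that direction, and their summed level was 3352 to 14770 CPM in the aged against 15210 to 29510 CPM in the young, whose part in the result was not tested. Genes of other immune cells were higher with the members: 12 of 12 B and T cell genes (median log2 difference 2.88, sums of 1429 to 3412 CPM in the aged against 35.4 to 453 CPM in the young), 6 of 9 dendritic cell genes (1.61) and 4 of 10 tested neutrophil genes (1.61). Of 20 mononuclear phagocyte genes 16 were higher (1.48). Of 21 lipid-handling macrophage genes 9 were higher and 3 lower (0.40). Of 14 tested resident macrophage genes 5 were higher and 1 lower (0.23). The part of these cells was not tested either.

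In kidney Gpnmb was between 0.0423 and 0.541 CPM in the young and between 0.500 and 5.96 CPM in the aged, a log2 difference of 3.02 ± 0.53. Trem2 was at 0 to 0.212 CPM in the young and 0.180 to 2.06 CPM in the aged, a log2 difference of 2.39 ± 0.41. Both genes are at or under a few CPM there, whereas Lyz2 lay at 10.2 to 18.0 CPM in the young and 23.8 to 109.5 CPM in the aged, with no overlap. Kidney Atp6v0d2 was the 1 member that did not differ there, in a tissue where it is a gene of the epithelium. Of 10 tested resident macrophage genes 0 were higher and 1 lower in the aged kidneys (median log2 difference 0.25). Of 20 tested lipid-handling macrophage genes 3 were higher (0.05). Of 20 mononuclear phagocyte genes 16 were higher in the same kidneys (median log2 difference 0.96 beside 0.00 over all genes). So were 9 of 12 B and T cell genes (1.10), with sums of 129 to 661 CPM in the aged against 18.5 to 38.4 CPM in the young, and 6 of 9 dendritic cell genes (1.10), with 487 to 1651 CPM against 245 to 427 CPM; their part was not tested.

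Gpnmb was also higher in aged white blood cells (log2 difference 2.24), spleen (1.91), heart (1.49), frontal cortex (0.94) and colon (0.58), so in 7 of 12 tissues in all, and its difference was positive in 11 of 12. The white blood cell difference rests on low levels, 0.288 to 0.474 CPM in 5 young and 0.665 to 4.05 CPM in 5 aged mice. Without colons A52 and A53 the colon difference was 0.54 ± 0.20 and no longer past the threshold, which leaves 6 tissues. In spleen the young were at 3.24 to 5.14 CPM and the aged at 10.9 to 20.3 CPM, without overlap. Spleen Atp6v0d2 was higher as well, at 2.14 to 15.98 CPM in the aged against 0.701 to 1.29 CPM in the young (log2 difference 2.08), while spleen Adgre1 was the single member lower in the aged, by -0.38. Of the 35 differences, 10 lost the threshold when 1 mouse was left out, among them Gpnmb in colon (without any 1 of 3 mice) and frontal cortex (6 of 16) and Adgre1 in spleen (12 of 17).

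In the LT heart 2 members were higher in the aged. Gpnmb was at 1.10 to 2.28 CPM in the young (median 1.61) and 4.15 to 5.59 CPM in the aged (median 4.70), with no overlap, while Ctss overlapped, at 17.1 to 33.7 CPM and 18.9 to 80.2 CPM, and lost the threshold without any 1 of 10 mice. In hypothalamus Ctss was at 34.1 to 54.5 CPM in the young and 60.9 to 120 CPM in the aged (log2 difference 0.70 ± 0.13), again without overlap, with Trem2 (0.56) and Tyrobp (0.65) also higher. Mouse B19 was the highest there for all 3, and had 22.8 CPM of hypothalamic Gpnmb where the other 8 aged mice had 1.30 to 2.16 CPM; that difference was not past the threshold. In frontal cortex Ctss (0.46 ± 0.07) and Lyz2 (0.73 ± 0.13) were higher without overlap, and in skeletal muscle Lyz2 (1.03), Tyrobp (0.94), Ctss (1.24) and Adgre1 (1.05) were higher with overlap between the groups. Liver and hippocampus, like lung, had no member past the threshold. Counted by gene, Gpnmb was higher in 7 tissues, of which colon only with A52 and A53 kept. Ctss was higher in 6, Tyrobp and Lyz2 in 4, Trem2, Adgre1 and Atp6v0d2 in 3, and Cd68 and Mrc1 in 2. These counts are a description of a contrast that was in view when the members were chosen. The share of all genes that were higher in as many tissues was not counted.

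The ST cohort is made of other mice, though earlier results of the whole series were known when the members were chosen. Of 60 tests 18 passed, all higher in the aged, which is 30% beside 13.6% of all genes. The heart held 8 of them, beside 11.5% of all its genes that rose, and the hippocampus 5, beside 11.9%. In adipose tissue no member passed, and none of its 17665 genes did; in colon 4 of 18115 genes passed, no member among them.

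Gpnmb rose in the aged heart. The young mice were at 1.98, 2.37, 2.56, 2.57 and 3.14 CPM and the aged controls at 4.19, 8.33, 8.87, 9.17 and 9.58 CPM, with no overlap, and the log2 fold change was 1.67 ± 0.26 (adjusted p = 5.73e-04). One aged heart, that of mouse E32, sat well under the other 4. Adgre1 gave 21.4, 23.5, 24.6, 27.6 and 33.4 CPM in the young and 35.3, 58.1, 61.6, 89.3 and 124 CPM in the aged, again without overlap, for a log2 fold change of 1.498 ± 0.298 (adjusted p = 0.00309). Mrc1 moved with it, from 34.98 to 75.93 CPM in the young to 82.3 to 200 CPM in the aged (1.43 ± 0.31, adjusted p = 0.00479).

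The lysosomal and signalling members rose in the same hearts. Ctss rose by 1.81 ± 0.39 (adjusted p = 0.00453), Lyz2 by 1.47 ± 0.32 (0.00479) and Cd68 by 1.14 ± 0.22 (0.00267) on the log2 scale, each with no overlap between young and aged. Tyrobp rose by 1.42 ± 0.36 (adjusted p = 0.00961), also without overlap. Its partner Trem2 rose by 1.21 ± 0.38 (adjusted p = 0.0229), with young hearts at 2.68 to 5.01 CPM and aged hearts at 4.87 to 13.5 CPM, and lost the threshold without any 1 of 3 mice. Atp6v0d2 did not pass (0.85 ± 0.50). Either 7 or 8 members passed whichever mouse was left out. It was 8 without E23, whose summed mononuclear phagocyte level was the highest of the aged hearts, and 8 without E32, whose level was the lowest.

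Other macrophage genes of the heart moved too. Of 20 mononuclear phagocyte genes 18 rose and none fell, with a median log2 fold change of 1.28 beside 0.02 over all genes: the scavenger receptor Msr1 rose by 1.48, the pore protein gene Mpeg1 by 1.95 and the inhibitory Fc receptor Fcgr2b by 1.34. Of 14 tested resident macrophage genes 9 rose, led by Cd209f (2.62), and of 14 tested genes around Trem2 and Tyrobp signalling 5 rose, with the PI3-kinase adaptor Pik3ap1 at 1.57. Of 20 tested lipid-handling macrophage genes 7 rose, among them the elastase Mmp12 (1.86) and the galectin Lgals3 (1.70). Genes of other cell types moved with these. Of 7 tested neutrophil genes 5 rose (Csf3r by 1.20, S100a9 by 2.32 and S100a8 by 2.31), with summed levels of 25.4 to 47.3 CPM in aged and 5.08 to 19.8 CPM in young hearts, and 4 of 5 tested white adipocyte genes fell, with sums of 450 to 593 CPM against 826 to 992 CPM. Their part in the members' rise was not tested.

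**Figure D2:**
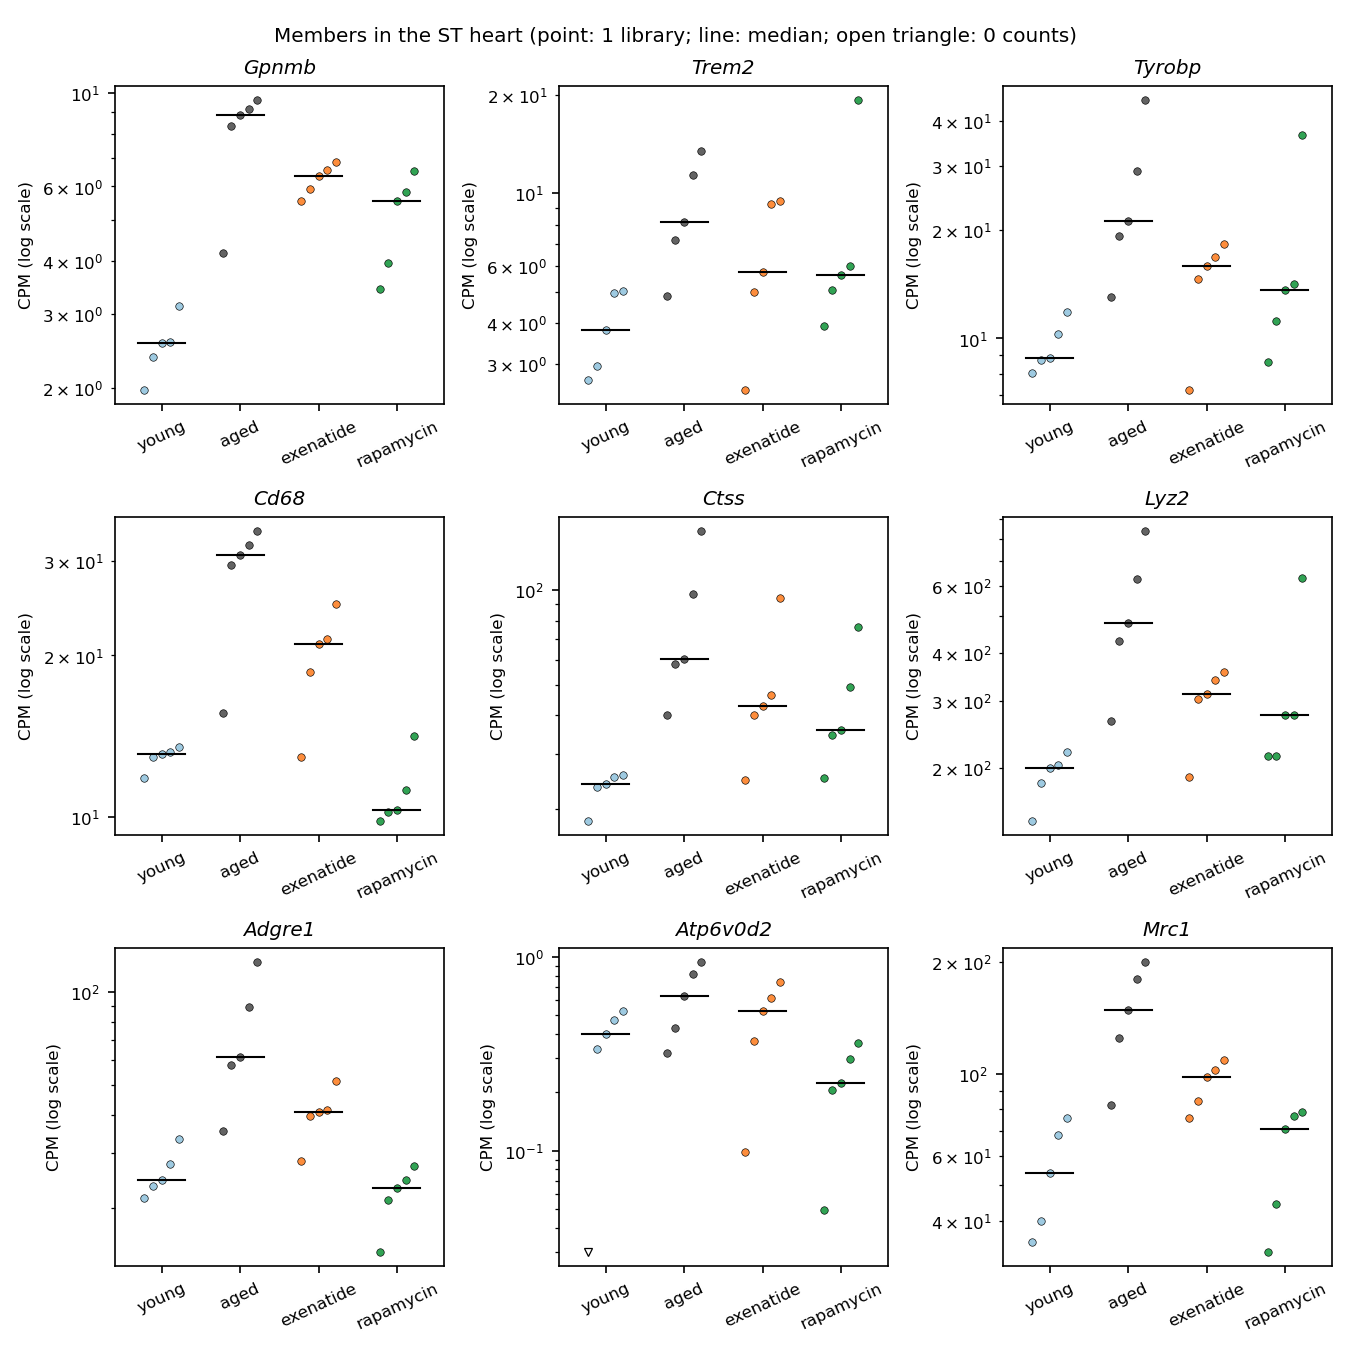
CPM (log axis) of the 9 members in ST hearts, 1 point a library, the line the median and the open triangle a library with 0 counts, in young and aged controls and in aged mice on exenatide or rapamycin. Gpnmb, Cd68, Adgre1 and Mrc1 of all young hearts lie under all aged controls, and the rapamycin hearts lie under the aged controls for Cd68, Adgre1 and Mrc1 with no overlap.

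In the aged hippocampus, whose macrophages are mainly microglia, Adgre1 had the smallest adjusted p of the members. Young mice were at 5.53, 5.76, 5.88, 6.22 and 6.26 CPM and aged controls at 9.18, 9.25, 11.3, 11.4 and 12.8 CPM, a log2 fold change of 0.86 ± 0.13 (adjusted p = 9.04e-06). The groups did not overlap. Lyz2 rose by 1.46 ± 0.39 (adjusted p = 0.00732), from 4.18 to 8.98 CPM to 9.13 to 25.6 CPM. Gpnmb rose by 0.67 ± 0.15 (0.00171), Cd68 by 0.55 ± 0.12 (0.00125) and Ctss by 0.48 ± 0.15 (0.0202, and 0.0968 without mouse E13). Trem2 and Tyrobp did not pass, with log2 fold changes of 0.30 ± 0.15 and -0.14 ± 0.17. Both have short transcripts, 1143 and 564 bases of exon. In this comparison genes of 1000 to 2000 bases had a median log2 change of -0.144 and those under 1000 bases -0.35. Cd68, Lyz2 and Ctss, which rose, have 1257, 1316 and 1358 bases of exon, in the same length class as Trem2. The part of length in these values was not tested. Of 12 microglia genes 10 rose, with a median of 0.39 beside 0.00 over all genes, among them the transcription factor gene Sall1 by 0.42 and the purine receptor gene P2ry12 by 0.38. Of 20 mononuclear phagocyte genes 13 rose, led by Cd14 at 0.92, and of 12 tested genes of Trem2 and Tyrobp signalling 6 rose, led by Pik3cg at 0.88. Of 7 tested neutrophil genes 5 rose there as well, with sums of 13.1 to 25.04 CPM against 8.67 to 9.94 CPM, whose part was not tested.

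Gpnmb was the 1 member to rise in aged skeletal muscle, from 1.37 to 3.42 CPM in the young to 3.81 to 6.27 CPM in the aged, with no overlap (log2 fold change 1.22 ± 0.29, adjusted p = 0.00412). Ctss rose in frontal cortex, from 45.98 to 54.31 CPM to 60.2 to 73.2 CPM (0.39 ± 0.09, adjusted p = 0.00942). In white blood cells Tyrobp rose from 95.2 to 148 CPM to 219 to 440 CPM (1.36 ± 0.33, adjusted p = 0.00572), and Ctss by 1.13 ± 0.30 (0.00861, and 0.0526 without mouse E23). Trem2 rose there by 1.82 ± 0.65 (adjusted p = 0.0447) and lost the threshold without any 1 of 6 mice. With the length trend taken out Tyrobp still passed (0.93, adjusted p = 0.0496), while Ctss (0.59, 0.131) and Trem2 (1.27, 0.155) did not. Of 12 neutrophil genes 8 rose in these blood samples, Retnlg by 2.12, and the neutrophil sum was 3420 to 14010 CPM in the aged against 1527 to 5704 CPM in the young; its part in the rise of Tyrobp and Ctss was not tested.

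Adipose tissue gave wide ranges in this cohort. Gpnmb was at 25.8, 37.2, 44.99, 235 and 825 CPM in the young and at 84.5, 94.6, 96.0, 97.1 and 290 CPM in the aged, a log2 difference of -0.82 ± 0.77 that did not pass. The young mice A44 and A45 exceeded 4 of the 5 aged controls, and A45 exceeded all 5. In the LT cohort no young mouse had exceeded any aged control. In fat of the YA controls, mice whose age is not given here, Gpnmb was at 77.35 to 450.9 CPM (median 147.8, n = 8). This range overlapped those of both the young and the aged LT controls. The YA medians of Tyrobp, Cd68, Ctss, Lyz2 and Adgre1 in fat were above those of the aged LT controls (Adgre1 at 462.8 against 366 CPM). Those of Gpnmb, Trem2, Atp6v0d2 and Mrc1 lay between the young and aged LT medians. The tables were normalised separately and the cohorts were not compared by a test.

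Rapamycin lowered the members in 15 of 60 tests and raised none, which is 25% beside 13.2% of all genes in either direction. The comparison shares its aged controls with the age comparison, so a low value here and a high value there rest on the same 5 mice. With only the rapamycin and aged control mice in the fit, 8 tests passed, 7 of them among the 15. With the trend of transcript length taken out 18 passed, 12 of them among the 15. The heart held 5 of the falls, beside 10.1% of all its genes that fell, and the hippocampus 3, beside 13.5%. Gpnmb fell in 5 of 7 tissues and Adgre1 in 4, Cd68 in 2, and Trem2, Ctss, Atp6v0d2 and Mrc1 in 1 each.

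The colon gave the widest gap for Gpnmb. Rapamycin mice were at 1.10, 2.63, 2.91, 2.99 and 3.50 CPM and aged controls at 9.09, 9.84, 11.4, 11.7 and 17.8 CPM, with no overlap, for a log2 fold change of -2.19 ± 0.30 (adjusted p = 9.45e-04). Young colons, at 6.93 to 14.3 CPM, were at the level of the aged controls. Few genes fell in this tissue, 55 of 18115, or 0.304%, and none of 20 mononuclear phagocyte genes passed there in either direction (median -0.29 beside 0.03 over all genes). Cd68 and Lyz2 did not overlap between the groups either, at log2 values of -1.09 ± 0.40 and -0.94 ± 0.31, but did not pass (adjusted p = 0.163 and 0.123). The summed level of the 20 was 483 to 663 CPM with rapamycin and 444 to 834 CPM in the aged controls. The gene most like Gpnmb across libraries, Mmp12, rose in the same colons, from 0.770 to 2.24 CPM to 1.80 to 11.3 CPM (2.08 ± 0.40, adjusted p = 0.0218).

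Gpnmb fell in skeletal muscle from 3.81, 3.90, 4.82, 5.89 and 6.27 CPM in the aged controls to 1.44, 1.78, 1.82, 2.16 and 2.24 CPM (-1.38 ± 0.29, adjusted p = 0.00460), again without overlap. In hippocampus it fell from 7.39 to 12.1 CPM to 4.25 to 7.57 CPM (-0.80 ± 0.16, adjusted p = 2.39e-04). Heart (-0.67 ± 0.25, adjusted p = 0.0485) and frontal cortex (-0.66 ± 0.23, 0.0468) were near the threshold, and these falls were lost without any 1 of 7 and of 6 mice, and with the length trend taken out (0.0744 and 0.0540). Adipose tissue and white blood cells had negative values that did not pass, -0.48 ± 0.76 and -0.47 ± 0.82. Among 12012 genes tested in all 7 tissues, Gpnmb was the 1 gene (0.00833%) that fell in at least 5, a number of tissues chosen after its values were seen. The count of tissues was 5 with DESeq2, 2 when the 2 groups were fitted alone and 3 to 5 with 1 mouse left out, and its value was negative in all 7 tissues in all but 1 of the settings that fitted all 7: without mouse E23 it was negative in 5.

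**Figure D3:**
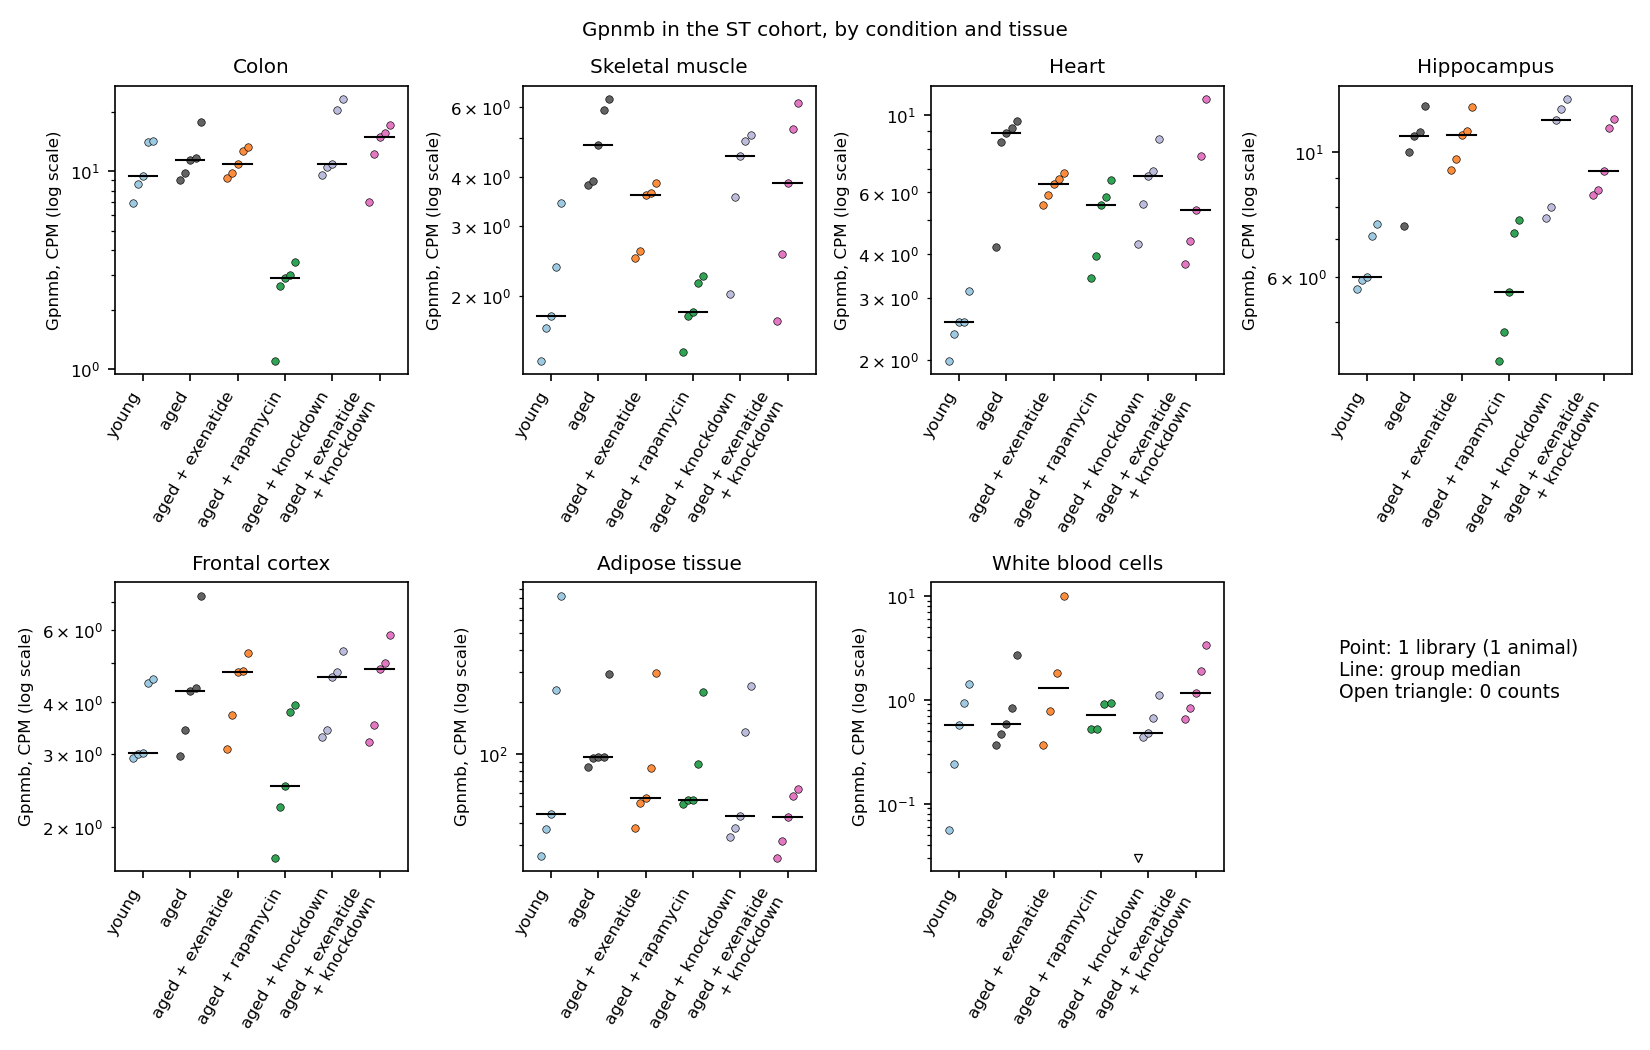
Gpnmb in CPM (log axes that differ between panels) in the 7 ST tissues by condition, 1 point a library, the line the median and the open triangle a library with 0 counts. In colon and skeletal muscle all 5 rapamycin mice lie under all 5 aged controls, and in adipose tissue 2 young mice are at 235 and 825 CPM.

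Adgre1 fell in heart, where rapamycin mice were at 14.4, 21.1, 23.2, 24.5 and 27.3 CPM and aged controls at 35.3 to 124 CPM (-1.74 ± 0.30, adjusted p = 6.36e-04). It fell in hippocampus from 9.18 to 12.8 CPM to 5.50 to 7.20 CPM (-0.79 ± 0.13, adjusted p = 2.82e-05), and in skeletal muscle from 2.12 to 7.59 CPM to 0.595 to 1.18 CPM (-2.04 ± 0.44, adjusted p = 0.00566). None of these 3 groups overlapped. In frontal cortex it fell by 0.43 ± 0.13 (adjusted p = 0.0206), with 1 rapamycin mouse inside the range of the controls, and lost the threshold without any 1 of 2 mice.

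Heart Cd68 fell from 15.6 to 34.1 CPM to 9.82, 10.2, 10.3, 11.2 and 14.1 CPM (-1.35 ± 0.22, adjusted p = 3.59e-04) and Mrc1 from 82.3 to 200 CPM to 32.9 to 78.6 CPM (-1.28 ± 0.31, 0.00586), both with no overlap. Trem2, Tyrobp, Ctss and Lyz2 did not pass in the heart. For each of these 4, mouse E28 was the highest of the rapamycin hearts, at 19.2 CPM for Trem2 where the other 4 were at 3.94 to 5.999 CPM, and it stood within the other 4 for Cd68. Atp6v0d2, at 0.0494 to 0.359 CPM against 0.319 to 0.934 CPM, fell by 1.45 ± 0.52 (adjusted p = 0.0429) and lost the threshold without any 1 of 7 mice. Outside the heart, hippocampal Cd68 fell by 0.39 ± 0.12 (adjusted p = 0.0187, lost without any 1 of 2 mice). Muscle Trem2 fell by 1.55 ± 0.50 (0.0441, lost for 8 of 10 mice left out) at levels under 1 CPM, and white blood cell Ctss by 0.99 ± 0.32 (0.0411, lost for 5 of 9, and 0.370 with the length trend taken out).

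In the rapamycin heart, 11 of 20 mononuclear phagocyte genes fell and none rose (median -0.85 beside 0.02 over all genes), with Ms4a7 at -2.10, the CSF1 receptor gene Csf1r at -0.85 and the Fc receptor gene Fcgr3 at -1.11. Of 14 tested genes of Trem2 and Tyrobp signalling 6 fell, and of 14 tested resident macrophage genes 4, led by the sialoadhesin gene Siglec1 at -1.58. None of 20 tested lipid-handling genes passed (Mmp12 at 0.81 ± 0.30, adjusted p = 0.0514). Of 7 tested neutrophil genes 3 fell (Csf3r, S100a9 and S100a8), and 4 of 5 tested white adipocyte genes rose, Pnpla2 by 0.84, with sums of 833 to 1099 CPM against 450 to 593 CPM; their part was not tested. In the hippocampus 9 of 12 microglia genes fell (Fcrls -0.70, P2ry12 -0.44, median -0.35) and 14 of 31 lysosome and proton pump genes, among them the pump subunit gene Atp6v0a1 (-0.23), with 1 higher. In frontal cortex 5 of 12 microglia genes fell, beside 10.4% of all its genes, with a median of -0.21 beside 0.00 over all genes.

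**Figure D4:**
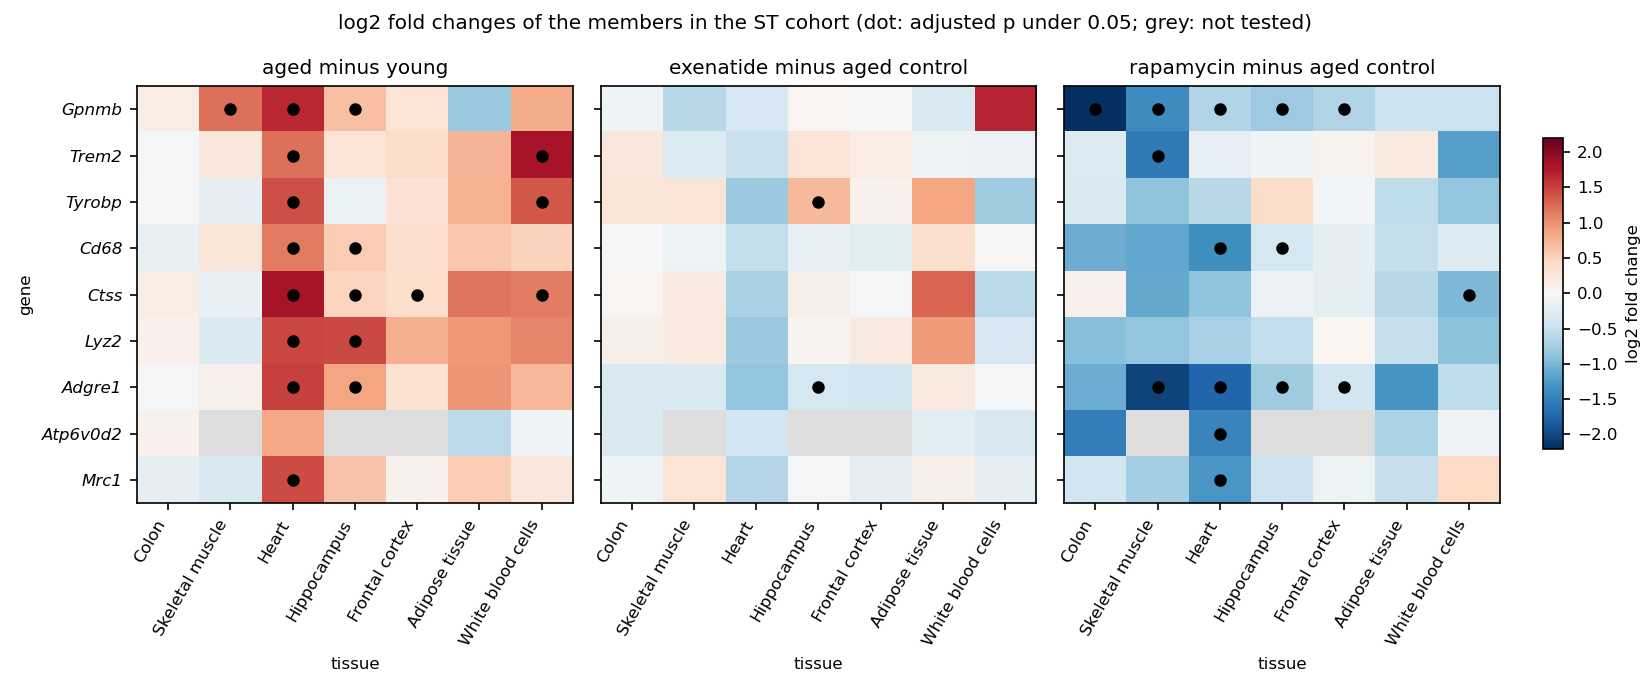
Log2 fold changes (colour) of the 9 members in 7 tissues of the ST cohort for age, exenatide and rapamycin, the last 2 against the same aged controls as age; dots mark adjusted p under 0.05 and grey cells were too low to test. Age has 18 dots, all higher, with 8 in heart, exenatide has 2 and rapamycin 15, all lower.

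Exenatide in the ST cohort, compared with the same aged controls, changed members in 2 of 60 tests, 3.33% beside 8.0% of all genes. Both were in hippocampus. Tyrobp rose from 7.34, 7.50, 7.56, 9.17 and 12.7 CPM to 12.6, 13.5, 14.6, 15.5 and 16.8 CPM, with 1 control inside the exenatide range (0.72 ± 0.17, adjusted p = 0.00173). Tyrobp has a short transcript, 564 bases of exon, and in this comparison the 541 genes under 1000 bases had a median log2 change of 0.41 where the 1072 longest genes had -0.13. With that trend taken out of the counts, Tyrobp was at 0.23 (adjusted p = 0.227) and no longer passed; whether length sets its rise was not tested further. Adgre1 fell from 9.18 to 12.8 CPM to 7.01 to 9.996 CPM (-0.39 ± 0.13, adjusted p = 0.0203), was nearly the same without the trend (-0.37, 0.0290), and lost the threshold without any 1 of 2 mice. Of 12 microglia genes 4 fell and none rose, beside 14.4% of all hippocampal genes that fell, with a median of -0.22 beside 0.01 over all genes; P2ry12 fell by 0.27 on the log2 scale.

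In the heart, where age and rapamycin had moved most members, all 9 values under exenatide were negative, from -0.36 ± 0.24 for Gpnmb to -0.87 ± 0.29 for Adgre1, and none passed; the smallest adjusted p was 0.0949, for Adgre1. Adgre1 was at 28.2, 39.5, 40.8, 41.3 and 51.2 CPM with exenatide, overlapping both the young and the aged range. Gpnmb was at 5.53, 5.91, 6.34, 6.57 and 6.84 CPM, above the young hearts and under 4 of the 5 aged controls. Gpnmb did not pass in any ST tissue under exenatide. In colon it stayed at 9.27 to 13.2 CPM with exenatide, inside the range of the aged controls.

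Hypothalamic knockdown alone changed members in 2 of 60 tests, 3.33% beside 3.27% of all genes, both in white blood cells and both against the same aged controls. Tyrobp fell from 219 to 440 CPM to 37.6, 96.7, 140, 187 and 232 CPM (-1.19 ± 0.33, adjusted p = 0.0328) and Ctss from 383 to 1142 CPM to 130 to 394 CPM (-1.12 ± 0.30, 0.0273). Tyrobp was lost without any 1 of 6 mice and Ctss without any 1 of 3, and neither passed when the 2 groups were fitted alone (adjusted p = 0.346 for both). With the length trend taken out neither passed either, at -0.96 for Tyrobp (adjusted p = 0.0661) and -0.77 for Ctss (0.0781). In these blood samples genes under 1000 bases had a median log2 change of -0.185 and the 753 longest genes 0.44. Knockdown mouse E20 was the lowest and control mouse E23 was the highest for Ctss. Of 12 neutrophil genes 4 fell, with sums of 256 to 3803 CPM against 3420 to 14010 CPM, and 2 of 12 B and T cell genes rose, Cd8a by 2.12; their part was not tested.

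Among knockdown mice, exenatide raised 2 of 60, 3.33% beside 4.94% of all genes, and both are in hippocampus. Tyrobp rose from 3.03, 5.85, 6.98, 8.75 and 9.13 CPM to 10.8, 11.2, 12.4, 12.6 and 13.8 CPM with no overlap (0.84 ± 0.17, adjusted p = 3.84e-04), and Trem2 from 8.85 to 17.0 CPM to 14.2 to 20.3 CPM (0.43 ± 0.15, 0.0247). With the length trend taken out these were 0.34 (adjusted p = 0.0650) and 0.12 (0.576), so neither passed. The test of the difference in the exenatide effect with and without knockdown called 0 of 60 with edgeR, beside 2.41% of all genes; 11 had an unadjusted p under 0.05, and DESeq2 called 3. Tyrobp rose with exenatide in both settings before the length trend was removed, and its rise was not shown to differ between them.

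Exenatide in the LT cohort changed members in 5 of 103 tests, 4.85% beside 4.92% of all genes; DESeq2 called 16, and 2 to 11 were called with 1 mouse left out. It shares its aged controls with the age difference that was in view when the members were chosen. Of the 5, 4 are of Gpnmb or Atp6v0d2, 3 of these higher, in lung and liver, and 1 lower, in adipose tissue.

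Lung Gpnmb was at 20.8, 37.2, 55.9, 57.7, 67.8, 79.5, 190 and 582 CPM with exenatide and at 14.02, 14.69, 17.8, 18.32, 24.52, 24.97, 25.14 and 29.2 CPM in the aged controls, so 7 of 8 treated mice were above every control. The log2 fold change was 2.68 ± 0.51 (adjusted p = 0.0332). Leaving out 1 mouse lost the threshold for 9 of 16 mice. Within sequencing batch 3 alone the value was 2.48 ± 0.42 (adjusted p = 0.0771) and within batch 2 alone 2.78 ± 0.77 (0.225). Lung Atp6v0d2 was at 44.6 to 292 CPM against 38.4 to 70.1 CPM, with 5 of 8 treated mice above every control (1.41 ± 0.33, adjusted p = 0.0484, lost for 13 of 16 mice), and gave 1.71 ± 0.26 (0.0506) and 1.18 ± 0.45 (0.317) within the batches.

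The other lung members were all positive without passing: Trem2 at 1.48 ± 0.38 (adjusted p = 0.0648), Cd68 at 0.95 ± 0.23 (0.0545), Ctss at 0.85, Mrc1 at 0.76, Adgre1 at 0.55, Lyz2 at 0.27 and Tyrobp at 0.18. Among 11 alveolar macrophage genes 1 rose, Chil3, a chitinase-like protein, by 2.14 ± 0.47 (adjusted p = 0.0448), and the median of the 11 was 0.25. Their summed level was 1010 to 10110 CPM (median 2283) with exenatide and 941 to 1510 CPM (median 1174) in the aged controls. Chil3 alone reached 9560 CPM, so it made up most of the highest sum, that of mouse B28. Chil3 was also among the 10 listed monocyte genes, whose sums were 3494 to 12060 CPM with exenatide and 2062 to 3788 CPM in controls. The mice with the 2 highest Gpnmb values, B28 and B30, also had the 2 highest Chil3, Mmp12 and Ctsk values, up to 9560, 688 and 348 CPM. Mpeg1 (0.75) and the integrin gene Itgax (1.28) rose as well. The lists did not all move 1 way. Mononuclear phagocyte sums were 1391 to 3342 CPM (median 1962) with exenatide and 1163 to 1717 CPM (median 1457) in controls. Resident macrophage sums were 3899 to 6879 CPM (median 6085) with exenatide and 5738 to 7870 CPM (median 6759) in controls. Alveolar type 2 cell genes did not pass, at sums of 18390 to 23710 CPM with exenatide and 18230 to 25360 CPM in controls. How far more macrophages or more RNA per macrophage bear on this was not tested.

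Liver Atp6v0d2 was at 7.06, 7.48, 8.79, 10.1, 11.5, 20.1, 24.1 and 43.2 CPM with exenatide and at 1.82 to 7.07 CPM in the aged controls, where it overlapped by 1 mouse (1.84 ± 0.40, adjusted p = 0.0179). Without mouse B36, the highest, the adjusted p was 0.0531. All livers were of 1 sequencing batch. Gpnmb in the same livers reached 43.3 CPM in B36 and was at 0.569 to 9.28 CPM in the other 7, against 0.751 to 3.55 CPM in controls (2.09 ± 0.60, adjusted p = 0.0869). Of 20 mononuclear phagocyte genes none passed (median 0.18 beside 0.01 over all genes). Of 9 tested neutrophil genes 3 rose, Retnlg by 2.35, with sums of 9.31 to 114 CPM against 7.15 to 24.4 CPM, and their part was not tested. The treated livers titled B13 and B14 carry each other's mouse in their descriptions; both are in the same group.

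In adipose tissue Atp6v0d2 went the other way, at 5.45, 13.9, 19.2, 28.5, 33.9, 46.2, 59.2 and 93.7 CPM with exenatide against 25.7 to 253 CPM in the aged controls (-1.47 ± 0.45, adjusted p = 0.0247), and was lost without any 1 of 3 mice. Within batch 2 it was -1.77 ± 0.58 (adjusted p = 0.0548) and within batch 3 -1.09 ± 0.67 (0.586). Gpnmb, at 35.2 to 685 CPM against 135 to 1353 CPM, had -1.14 ± 0.45 (adjusted p = 0.0817). The remaining 7 members were between -0.53 and 0.19. White adipocyte genes rose in the same fat, 5 of 10, with Cfd (adipsin) at 1.67 and Lipe, the hormone-sensitive lipase, at 1.07, and sums of 9124 to 35320 CPM against 3352 to 14770 CPM; their part was not tested.

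The effects in mice with both tissues, pairs chosen after the values were seen because they differed in sign, are set side by side without a test. On the log2(CPM + 0.1) scale, Atp6v0d2 had 1.16 in lung and -1.42 in fat of the same 16 mice, and 1.70 in liver and -1.52 in fat of 17 mice. Gpnmb had 1.94 in lung and -1.09 in fat of 16 mice. A test on pairs chosen in this way would restate the choice, so none is given.

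**Figure D5:**
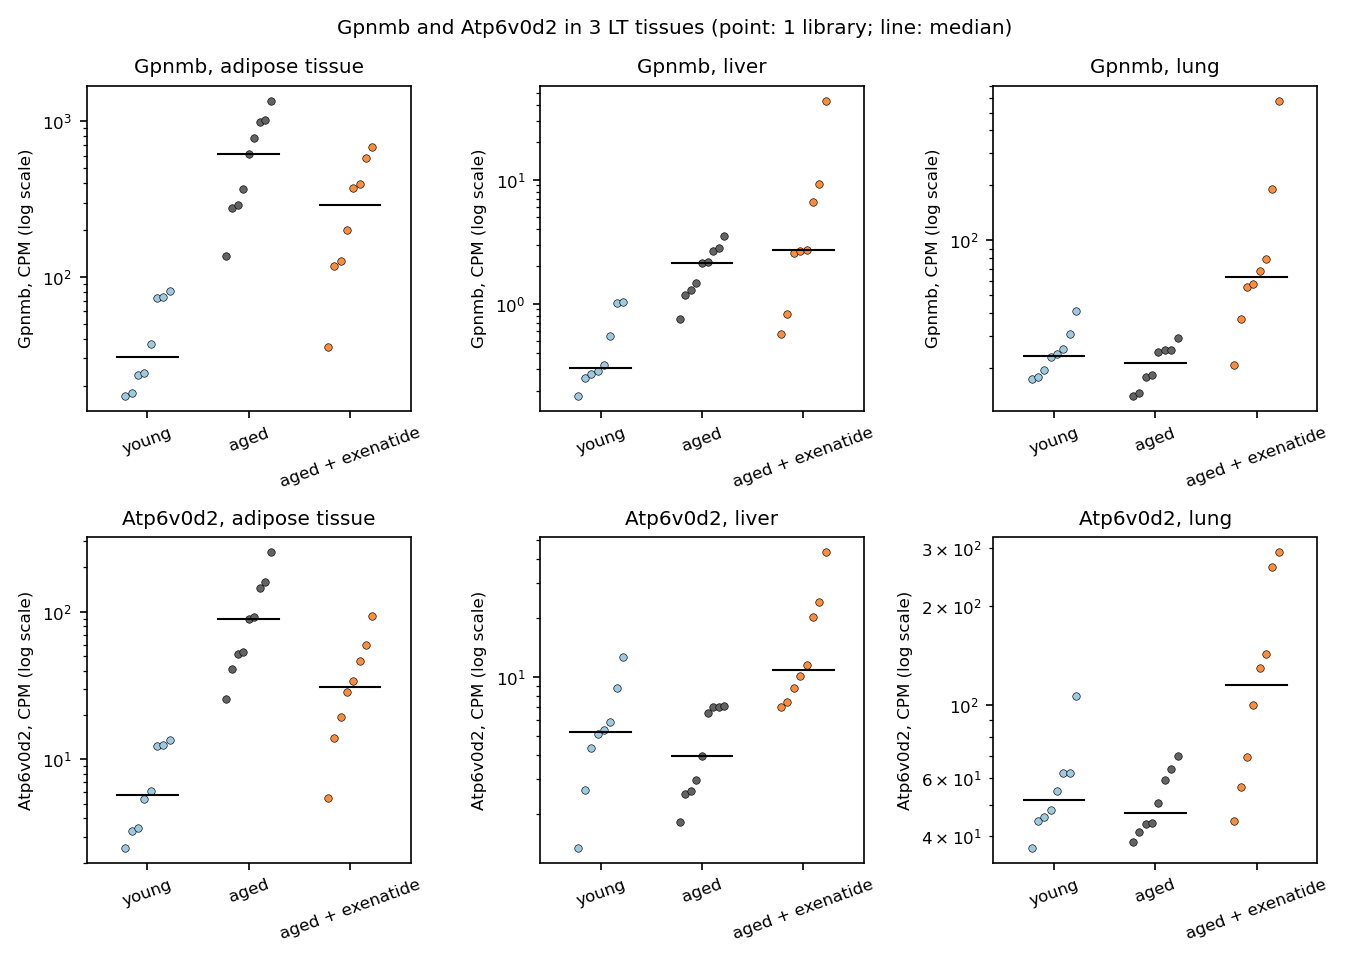
Gpnmb (top) and Atp6v0d2 (bottom) in CPM (log axes that differ between panels) in LT adipose tissue, liver and lung of the young and aged controls and the aged exenatide mice, 1 point a library and the line the median. In lung 7 of 8 exenatide mice lie above every aged control for Gpnmb, with B28 at 582 CPM, and in adipose tissue the aged controls reach 1353 CPM.

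Colon Tyrobp was the other LT call. It was at 5.17 to 7.95 CPM with exenatide and 7.26 to 18.5 CPM in aged controls (-0.77 ± 0.18, adjusted p = 0.00896), with values of -0.78 in either batch alone that did not pass (adjusted p = 0.0949 and 0.361) and -0.77 (adjusted p = 0.00533) without colons A52 and A53. Short genes were lower in this comparison, with a median of -0.46 for the 724 genes under 1000 bases and 0.25 in the longest of 5 length classes, and Tyrobp was at -0.37 (adjusted p = 0.143) with that trend removed. Spleen Gpnmb, at 7.72 to 13.7 CPM with exenatide and 10.9 to 20.3 CPM in aged controls, had -0.58 ± 0.14 and did not pass (adjusted p = 0.251).

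In the YA cohort exenatide changed members in 1 of 64 tests, 1.56% beside 0.631% of all genes. Colon Mrc1 fell from 15.5, 15.5, 16.3, 16.6, 19.2, 23.4, 23.8 and 24.3 CPM in controls to 9.16, 10.7, 10.97, 11.4, 11.9, 13.6, 14.8 and 16.5 CPM with exenatide, with 1 treated mouse inside the control range. The log2 fold change was -0.64 ± 0.13 (adjusted p = 0.0125), and it passed whichever of the 16 mice was left out. Of 20 mononuclear phagocyte genes 1 fell in this colon, the fractalkine receptor gene Cx3cr1, by 0.70 ± 0.16 (adjusted p = 0.0221), from 10.2 to 22.9 CPM to 6.59 to 13.02 CPM. The summed level of the 20 was 410 to 861 CPM with exenatide and 406 to 880 CPM in controls. The sum of 12 B and T cell genes was lower in the treated colons, at 167 to 1024 CPM (median 301) against 873 to 2371 CPM (median 1371). Among the 12 only Jchain, the joining chain of secreted IgA and IgM, fell, by 1.75 ± 0.40 (adjusted p = 0.0223), and the median log2 change of the 12 was 0.10; their part in the fall of Mrc1 was not tested. Gpnmb and Trem2 passed in no YA tissue, and Atp6v0d2 was high enough to test only in adipose tissue.

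Likeness between genes was described from how libraries deviate from the mean of their tissue, condition and batch, over 284, 208 and 128 libraries of the 3 cohorts and 15034 genes. The measure is the lowest of the 3 Pearson correlations, and libraries of 1 mouse share that mouse. Gpnmb was most like Mmp12 (0.37), Stra6l (0.34), Mmp2 (0.32), Arhgap19 (0.30) and Cd200r4 (0.30). Trem2 was most like Mcub (0.50), the member Cd68 (0.48), S100a6 (0.48), Anxa5 (0.46) and Anxa3 (0.46). Among the 5 genes most like Mrc1 were Myof (0.57), the member Adgre1 (0.56), Abca9 (0.56) and Ifi207 (0.51). Within single tissues, Gpnmb and Atp6v0d2 deviated together in adipose tissue of all cohorts (0.958, 0.900 and 0.914) and in LT lung (0.880), and apart in kidney (-0.51). Trem2 and its adaptor Tyrobp ran from 0.0523 to 0.984 over 27 tissue sets, with a median of 0.554.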

How the data were processed

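Poly(A) RNA from RNAlater-kept tissue was sequenced in 620 libraries, per the labels' protocols. The authors deposited whole read counts per gene for the LT cohort, and estimated counts for the ST and YA cohorts, where 7.36% and 7.2% of non-zero values were not whole and were rounded. FastQC 0.11.9 and build GRCm39 are named in the submitters' processing notes; no source used here names the aligner or counter. The kit does not mark strand, so reads of antisense genes cannot be told apart.

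Each tissue of each cohort was fitted over all its conditions with edgeR 4.0.16 (R 4.3.3): TMM scaling, edgeR's filter on low counts, robust quasi-likelihood, and RNA-seq batch as a term where an LT tissue had 2 batches. P-values were adjusted (Benjamini-Hochberg) over all genes of a tissue, with calls at an adjusted p under 0.05. Errors are standard errors. DESeq2 1.42.0, its size factors in edgeR, no filter, fits of the compared groups alone, single batches, no batch term and each mouse left out were alternatives; fits without LT colons A52 and A53, and with the trend on transcript length removed from every library, were added after seeing the data. Fits were tested on simulated data. Members and gene lists were chosen with earlier results of these data known. Named genes are the 9 members, the 5 genes most like Gpnmb, Trem2 and Mrc1, and up to 3 genes of each list, those of smallest adjusted p, some of which are not reported here; colon and lung genes set beside a member were chosen after their values were seen. Tissues of 1 mouse are not separate mice.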

Additional observations from a re-analysis of the deposited data

Results flagged for a closer look

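For the tests that passed, 78 groups of 4 to 10 libraries were examined. Of these, 8 held a library set apart from the others of its group by Dixon's criterion. Chance meets it in about 1 of 20 groups of normally distributed values. These groups hold CPM values, were taken from tests that passed and share mice, so that rate need not hold here. In the LT cohort, exenatide mouse B36 had 43.2 CPM of Atp6v0d2 in liver where the next mouse had 24.1 CPM, and exenatide mouse B28 had 582 CPM of Gpnmb in lung where the next had 190 CPM. In the ST aged controls, mouse E23 was high for Trem2 in white blood cells (23.99 CPM, next 10.5 CPM) and for Adgre1 in skeletal muscle (7.59 CPM, next 3.34 CPM). Mouse E13 was high for Ctss in hippocampus (123 CPM, next 84.9 CPM). Mouse E32 was low in heart for Gpnmb (4.19 CPM, next 8.33 CPM) and Cd68 (15.6 CPM, next 29.6 CPM). Among ST young controls, A44 was high for Trem2 in white blood cells, at 6.68 CPM where the next was at 3.23 CPM.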

How the results depend on the processing

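No member test that passed changed sign under any alternative run. All 15 rapamycin calls, all 18 ST age calls and the calls of the other comparisons also passed with DESeq2. Without colons A52 and A53 the LT age calls were 34, Gpnmb in colon being lost, and the LT exenatide calls 5. Counts of calls moved by over 1.5 times as follows. LT age, 35 calls, gave 11 in batch 3 alone and 22 in batches 1 and 2 alone. LT exenatide, 5 calls, gave 16 with DESeq2, 1 in batch 3 alone, 1 in batches 1 and 2 alone and 3 with the compared groups alone. ST rapamycin, 15 calls, gave 8 with the compared groups alone. ST knockdown, 2 calls, gave 4 with DESeq2 and 1 with the length trend removed, a different test, so that none of the 2 remained; with the compared groups alone it gave 2, neither of them among the first 2. Exenatide under knockdown, 2 calls, gave 1 with the compared groups alone and 0 with the length trend removed. The difference of exenatide by knockdown, 0 calls, gave 3 with DESeq2. YA exenatide, 1 call, gave 2 with DESeq2 and 2 with the length trend removed. Leaving out each mouse gave 28 to 34 calls for LT age, 2 to 11 for LT exenatide, 16 to 19 for ST age, 1 to 3 for ST exenatide, 9 to 16 for rapamycin, 0 to 3 for knockdown, 1 to 3 for exenatide under knockdown, 0 to 2 for the difference by knockdown and 1 to 2 for YA exenatide. The cause of these shifts was not tested, beyond the fewer mice in each such fit. Atp6v0d2 in heart and muscle, Gpnmb in LT white blood cells, and Gpnmb and Trem2 in kidney rest on few reads.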
